A study of Mus musculus with 4 samples.

Results

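Keratins, desmosome proteins and other epidermal genes were followed by name in host tissue around implanted porous scaffolds. The list held 42 genes, chosen by symbol, out of 19087 named genes on the array, and 40 of the 42 had at least 1 row under their symbol. Disc-shaped polyethylene scaffolds (the series title calls them polystyrene) coated with type I collagen, coated with PMB, a bio-inert copolymer of MPC and n-butyl methacrylate, or left non-coated were implanted subcutaneously on the backs of male C57BL/6 mice, 8 weeks old, and stayed there for 7 days. The non-coated scaffold was the reference for both coatings. The scaffolds were excised together with dorsal skin and frozen, and laser microdissection took the tissue within 100 µm of the scaffold out of 20 µm sections. The labels call the samples infiltrated host cells, but no cell type was isolated. There was 1 extract for each of the 3 kinds of scaffold (n = 1), and whether these lay in different mice is not stated in the sources used here. Each coating was set against the non-coated extract on 2 two-colour arrays, with the coated sample in Cy5 on replicate 1 and in Cy3 on replicate 2.

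Keratins are intermediate filament proteins that assemble as pairs of a type I and a type II chain, and the pair in use marks the layer and state of an epithelium. Basal keratinocytes make Krt5 and Krt14, suprabasal cells turn to Krt1 and Krt10, and keratinocytes at a wound edge make Krt6, Krt16 and Krt17, whereas simple epithelia use Krt7, Krt8, Krt18 and Krt19. Desmosomes are the junctions that anchor these filaments at the cell surface, and the cornified envelope is the protein shell of the outermost epidermal cells.

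Every value below is a log2 ratio of coated over non-coated unless stated, a pair of values is in the order replicate 1 and replicate 2, and ± is the SD of the 2 arrays. The 2 arrays of a coating carried 1 pair of extracts with the dyes exchanged and count as 1 replicate. The SD is thus technical, and without a further extract no test between scaffolds and no p-value can be given. A gene was called higher or lower when its mean was at least 1 in size (2-fold) with the same sign on both arrays. Over all probes, 52.3% to 60.5% had a value on an array, and which spots were left empty is not explained in the sources used here. Between arrays of a swap, the SD of the dye half-difference over genes was 0.155 for collagen and 0.162 for PMB.

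The genes of basal and wound-edge keratinocytes were among the highest of all genes at the collagen-coated scaffold. Of the 42 genes, 22 had values on both collagen arrays, and 16 of these were called higher, 1 was called lower and 5 were neither. Over all 12356 genes with values on both collagen arrays, 2.68% were called higher and 3.28% lower. Of the 16 genes, 10 had values on both collagen arrays but not on both PMB arrays, a kind of gene of which 13.5% were called higher and 1.37% lower. These genes passed the filter through the collagen arrays alone, so the count of 16 is a description and no support for a direction. The same holds for the counts by kind of gene below, which stand beside the same shares. With values required on all 4 arrays, 6 of 11 listed genes were called higher and 1 lower with collagen, against 2.21% and 3.38% of 11842 genes. In the order of all genes by collagen ratio, 10 of the 20 highest were on the list, led by the row annotated as Perp at rank 1, Krt16 at rank 6, Ly6d at rank 7, Lgals7 at rank 8 and Pkp1 at rank 10. All of these 10 but the row annotated as Perp had no value on PMB replicate 2. This order is thus a description too. More keratinocytes and more RNA of these genes per cell cannot be told apart in such extracts.

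**Figure D1:**
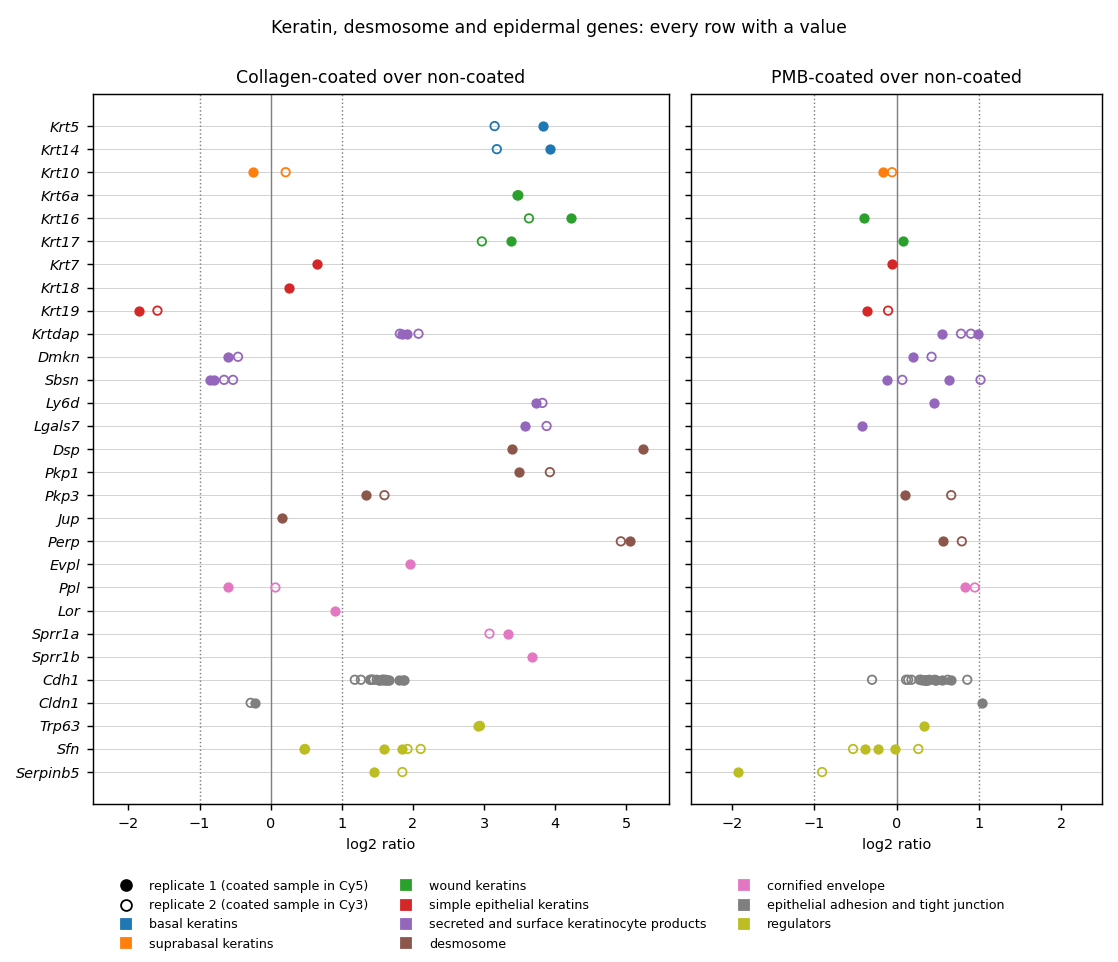
Each point is 1 row (spot entry) of a gene on 1 array, as log2 of collagen-coated over non-coated on the left and of PMB-coated over non-coated on the right, with filled circles for replicate 1 and open circles for replicate 2, dotted lines at 2-fold and colours for the role of the gene. Krt5, Krt14, Krt6a, Krt16, Krt17, Ly6d, Lgals7, Pkp1 and Sprr1a lay at 2.97 or above on both collagen arrays, and no row of them had a value on PMB replicate 2.

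The presence of values differed between the collagen and PMB arrays for these same genes. The PMB arrays also carried the non-coated extract, which is the denominator of the collagen ratios. Spot intensities were not read, so how weak the non-coated signal of these genes was, and its part in their ratios, was not tested. All 11 genes of the list with values on both PMB arrays also had them on both collagen arrays, and the other 11 had values on both collagen arrays but not on both PMB arrays. The whole table held 512 genes of this second kind. Of the 11 on the list 10 were called higher with collagen, and Cldn1 was not called. On PMB replicate 1 a value was present for 6 of the 11 genes, between -0.43 (Lgals7) and 1.03 (Cldn1), and on PMB replicate 2 for none.

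**Figure D2:**
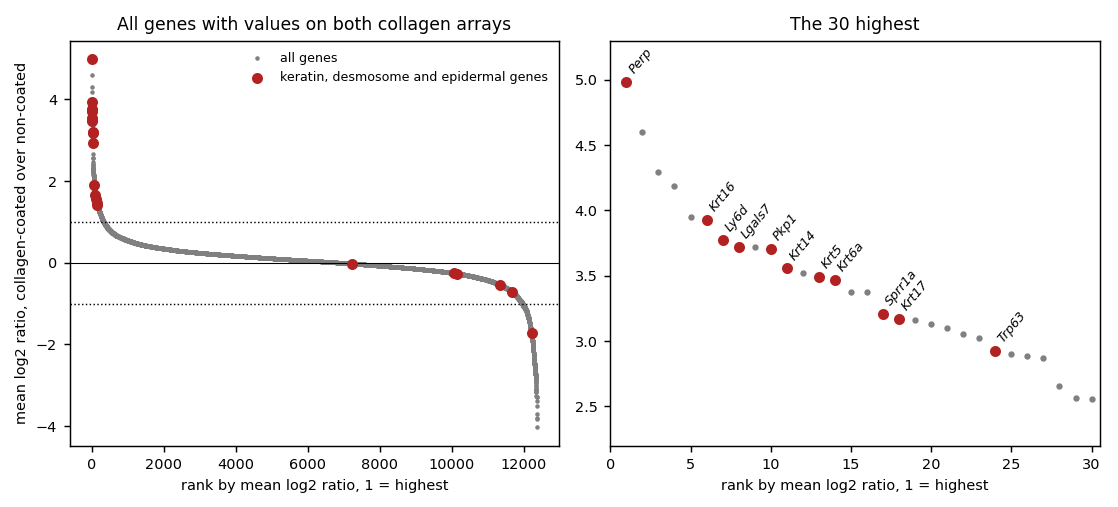
All 12356 genes with values on both collagen arrays, ordered by mean log2 ratio of collagen-coated over non-coated (vertical axis) with rank 1 highest (horizontal axis), with the listed genes in red and the 30 highest enlarged on the right. Of the 30 highest genes 11 are on the list, from the row annotated as Perp at 4.99 to Trp63 at 2.93, and the lowest listed gene is Krt19 at -1.72. All of these 11 but the row annotated as Perp had no value on PMB replicate 2.

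Both chains of the basal keratin pair were called higher. Krt5 was at 3.83 and 3.15 on the collagen arrays, a mean of 3.49 ± 0.48 (11.2-fold), and its partner Krt14 was at 3.93 and 3.18, a mean of 3.56 ± 0.53 (11.8-fold). Both had no value on either PMB array. Krt15, a further basal keratin that also marks hair follicle stem cells, had 1 row and no value on any array.

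Of the 4 wound keratins 3 had values on both collagen arrays, and these were called higher. Krt16 was at 4.22 and 3.63 (3.93 ± 0.42, 15.2-fold), Krt6a at 3.46 and 3.48 (3.47 ± 0.017, 11.1-fold) and Krt17 at 3.37 and 2.97 (3.17 ± 0.29, 9.01-fold) with collagen. On PMB replicate 1, the only PMB array with a value, Krt16 was at -0.40 and Krt17 at 0.079, whereas Krt6a had no PMB value. Krt6b, a close copy of Krt6a, had no value on any array. The probe sequences were not examined, so cross-hybridization among the similar keratin transcripts was not tested.

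No suprabasal or simple keratin with values on both collagen arrays was called higher. Krt10, the type I keratin of the spinous layer, had collagen values of -0.25 and 0.21 (-0.018 ± 0.32) and PMB values of -0.17 and -0.056 (-0.11 ± 0.078). Its values changed sign between the dye orientations with collagen, and a further row of Krt10 had no value. Krt1, its type II partner, had 2 rows and no value on any array. Of the simple epithelial keratins, Krt19 alone had values on both arrays of a coating and was lower with collagen, at -1.85 and -1.59 (-1.72 ± 0.18, 3.30-fold lower), against -0.36 and -0.10 with PMB (-0.23 ± 0.18). Krt19 was the only gene of the list called lower at the collagen-coated scaffold. Krt7 had values on replicate 1 only, 0.65 with collagen and -0.051 with PMB, Krt18 had the single value 0.26 on collagen replicate 1, and Krt8 had none.

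Among secreted and surface products of keratinocytes, 3 of 5 were called higher with collagen. Ly6d, a GPI-anchored surface protein of stratified epithelium, was at 3.73 and 3.82 (3.78 ± 0.062, 13.7-fold) with collagen and at 0.45 on PMB replicate 1. Lgals7, the galectin of stratified epithelia, was at 3.57 and 3.88 (3.72 ± 0.22, 13.2-fold) with collagen and at -0.43 on PMB replicate 1. Krtdap, a secreted protein of differentiating keratinocytes, had values on all 4 arrays over 2 rows, with collagen ratios of 1.88 and 1.95 (1.91 ± 0.048) and PMB ratios of 0.77 and 0.84 (0.81 ± 0.050). It was called higher with collagen (3.77-fold) and was not called with PMB.

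Dmkn and Sbsn, secreted proteins of the upper epidermis, did not follow Krtdap although the 3 genes are direct neighbours in the genome. The collagen ratios of Dmkn were -0.61 and -0.46 (-0.53 ± 0.10), and its PMB ratios were 0.20 and 0.42 (0.31 ± 0.16). Sbsn had -0.83 and -0.59 (-0.71 ± 0.17) beside collagen, against 0.26 and 0.54 (0.40 ± 0.20) beside PMB. Neither was called in either coating. The 2 rows of Sbsn were close with collagen, at -0.76 and -0.66, but were apart with PMB, at 0.83 and -0.026.

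Promoter sequence was set beside these ratios for the genes that RefSeq windows covered, 23 of the 42. Each window is the 250 bases before the start of a RefSeq transcript, on build GRCm38.p6, and 4 are printed because they show a basal keratin, an envelope gene and the neighbours Krtdap and Sbsn whose ratios went apart. Capitals mark matches, on either strand, to the AP-1 motif TGANTCA and to the TATA motif TATAAA, where N is any base and the letters of these motifs cannot overlap.
Krt5 (chr15:101712906-101713155, minus strand): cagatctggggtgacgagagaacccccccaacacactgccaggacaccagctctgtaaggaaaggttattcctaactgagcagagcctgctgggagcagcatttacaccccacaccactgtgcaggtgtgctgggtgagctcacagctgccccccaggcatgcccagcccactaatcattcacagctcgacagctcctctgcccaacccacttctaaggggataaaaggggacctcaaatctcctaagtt
Sprr1a (chr3:92485882-92486131, minus strand): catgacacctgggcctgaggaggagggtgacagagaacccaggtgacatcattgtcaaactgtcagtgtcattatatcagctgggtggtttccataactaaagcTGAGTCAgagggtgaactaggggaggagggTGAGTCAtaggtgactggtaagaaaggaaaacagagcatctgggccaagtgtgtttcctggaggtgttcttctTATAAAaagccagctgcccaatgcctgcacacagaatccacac
Krtdap (chr7:30787655-30787904, plus strand): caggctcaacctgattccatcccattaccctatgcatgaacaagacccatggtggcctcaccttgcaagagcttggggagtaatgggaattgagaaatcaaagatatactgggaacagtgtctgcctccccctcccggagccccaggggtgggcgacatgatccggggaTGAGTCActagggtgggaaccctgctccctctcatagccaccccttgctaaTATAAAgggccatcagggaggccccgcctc
Sbsn (chr7:30751221-30751470, plus strand): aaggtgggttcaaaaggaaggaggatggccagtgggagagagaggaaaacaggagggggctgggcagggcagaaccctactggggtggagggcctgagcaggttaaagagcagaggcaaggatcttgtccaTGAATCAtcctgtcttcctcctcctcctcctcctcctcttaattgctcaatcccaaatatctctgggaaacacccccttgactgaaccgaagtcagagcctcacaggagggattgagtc

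The window of Sprr1a held 2 AP-1 matches and 1 TATA match, that of Krtdap 1 of each, that of Sbsn 1 AP-1 match and that of Krt5 neither. Of the 23 listed genes with a window, 10 held TGANTCA and 7 held TATAAA, against 7.82% and 14.3% of the 27025 genes with windows. The AP-1 letters occurred before genes that were high with collagen (Sprr1a, Krtdap, Serpinb5) and before genes that were not called (Sbsn, Dmkn). They were not in these windows of Krt5, Krt14, Lgals7 and Sfn. The other listed genes with the letters, Ivl, Lor, Flg, Sprr1b and Cldn4, lacked values on both collagen arrays. The wound keratins, Pkp1, Trp63 and Cdh1 had no window. The matches are a description of the letters and not of binding.

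Of the 8 listed desmosome genes 3 had values on both collagen arrays, and these were called higher, against 2.68% of all genes. On all 4 arrays 2 of them had values, Pkp3 and the row annotated as Perp. Pkp1 passed the filter through the collagen arrays alone, so the count is a description. Pkp1, a plakophilin of the desmosomal plaque in suprabasal cells, was at 3.49 and 3.93 (3.71 ± 0.31, 13.1-fold), with no PMB value. Pkp3, a more widely expressed plakophilin, had 1.35 and 1.60 on the collagen arrays (1.47 ± 0.18, 2.78-fold) and 0.11 and 0.66 on the PMB arrays (0.38 ± 0.39).

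The row annotated as Perp, a tetraspan protein of desmosomes, had the highest collagen ratio of all genes, 5.05 and 4.92 (4.99 ± 0.091, 31.7-fold), against 0.56 and 0.79 beside PMB (0.68 ± 0.16). The tables of the study give the values of this row to another gene, the growth factor Pdgfc. Under the annotation used here 2 rows of Pdgfc had values, -1.21 and -0.79 on 1 row and -1.32 and -0.95 on the other with collagen, and -0.26 and -0.40, and -0.17 and -0.097, with PMB. Which gene the row measures was not settled here, and without it 15 of 21 genes were called higher with collagen.

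Dsp, the plakin that links desmosomes to keratins, had values on collagen replicate 1 only, 3.39 and 5.24 on its 2 rows, so no dye-swapped value stands beside them. Jup (plakoglobin) was at 0.15 on the same array. The desmosomal cadherins Dsg1a, Dsg3 and Dsc3 had rows but no value on any array.

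The cornified envelope was measured in part. Sprr1a, a small proline-rich envelope precursor that rises in injured epithelium, was at 3.33 and 3.08 with collagen (3.21 ± 0.18, 9.22-fold) and had no PMB value. Sprr1b was at 3.67, the plakin Evpl at 1.95 and the late envelope protein Lor at 0.90 on collagen replicate 1, with no value on the other arrays. Ppl, the partner of Evpl that is also made outside the epidermis, had collagen values of -0.60 and 0.066 (-0.27 ± 0.47) and PMB values of 0.84 and 0.95 (0.89 ± 0.081). Ivl had no value, and Flg had no row under its symbol.

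Cdh1, the adherens junction cadherin of epithelial cells, was the most densely measured gene, with 10 rows valued on all 4 arrays. On collagen replicate 1 its rows ran from 1.52 to 1.87 with a median of 1.63, and on replicate 2 from 1.18 to 1.62 with a median of 1.44. On PMB replicate 1 they ran from 0.31 to 0.66 with a median of 0.37, and on replicate 2 from -0.30 to 0.86 with a median of 0.29. The row values of the coatings did not overlap, and the gene means were 1.55 ± 0.16 with collagen (2.94-fold) and 0.37 ± 0.085 with PMB. The rows are repeat entries hybridized with the same extracts and are not replicates of the tissue.

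**Figure D3:**
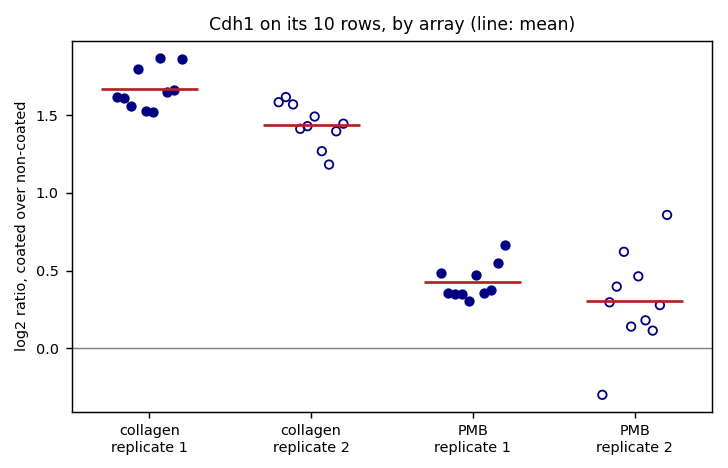
Log2 ratio of coated over non-coated for the 10 rows of Cdh1 on each of the 4 arrays, with a line at the mean of the rows. All 20 collagen values lie at 1.18 or above, and all 20 PMB values lie at 0.86 or below.

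Of the other listed junction and surface genes only Cldn1 had values, and it was not called. Cldn1, the main claudin of the epidermal barrier, was at -0.23 and -0.28 with collagen (-0.25 ± 0.040) and at 1.03 on PMB replicate 1. Cldn4 and the epithelial adhesion molecule Epcam had no value on any array.

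Of 5 regulators of the keratinocyte state 3 had values on both collagen arrays, and these were called higher, against 2.68% of all genes. On all 4 arrays 2 of them had values, Sfn and Serpinb5. Trp63 passed the filter through the collagen arrays alone, so the count is a description. Trp63, which encodes the p63 transcription factor of basal keratinocytes, was at 2.91 and 2.94 with collagen (2.93 ± 0.023, 7.60-fold) on 1 of its 4 rows, and that row was at 0.33 on PMB replicate 1. Its other 3 rows had no value. Sfn, the 14-3-3 sigma protein of stratified epithelia, had 1.16 and 1.20 on the collagen arrays (1.18 ± 0.034) and -0.30 and -0.13 on the PMB arrays (-0.22 ± 0.12). The rows of Sfn differed more than the arrays did, at 0.48 and 1.88 with collagen on the 2 rows with values on all 4 arrays. A further row was at 1.59 and 2.11 with collagen and had no value on PMB replicate 2. Over all rows valued on both collagen arrays Sfn was at 1.40. With the row of smallest dye difference Sfn was not called higher.

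Serpinb5 (maspin), an epithelial serpin, was the gene of the list that went furthest in opposite directions. Its collagen ratios were 1.45 and 1.85 (1.65 ± 0.28, 3.14-fold), and its PMB ratios were -1.93 and -0.91 (-1.42 ± 0.72). It was the only gene of the list called lower with PMB, and without PMB replicate 1 it stood at -0.91 and was not called. Esrp1, an epithelial splicing factor, had no value, and Grhl3 had no row under its symbol.

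Over the 11 genes with values on all 4 arrays the median with collagen was 1.18, against 0.036 over all genes with 4 values. With PMB, 0 were called higher and 1 was called lower, with a median of 0.37, against shares of 0.616% and 1.40% over all genes and a median of 0.022. The 11 PMB means ran from -1.42 (Serpinb5) to 0.89 (Ppl).

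The coatings were set against each other through the shared non-coated extract, as the collagen ratio minus the PMB ratio on arrays of like dye orientation. Here ± is the SD between the differences of each dye orientation, in which a dye effect shared by both coatings drops out. It does not measure the spread of either coating or between the rows of a gene. On this scale 6 of the 11 genes were called higher and 3 lower, with a median of 1.09, against 2.74% and 3.67% of all genes and a median of 0.0012. The 6 were the row annotated as Perp at 4.31 ± 0.25, Serpinb5 at 3.07 ± 0.44, Sfn at 1.40 ± 0.086, Cdh1 at 1.19 ± 0.076, Krtdap at 1.11 ± 0.0018 and Pkp3 at 1.09 ± 0.22. The 3 lower genes were Krt19 at -1.49 ± 0.00071, Ppl at -1.16 ± 0.39 and Sbsn at -1.11 ± 0.037. Without collagen replicate 1, Ppl and Sbsn were at -0.83 and -0.99 and Krt19 alone was called lower. Pkp3 fell short at 0.96 without collagen replicate 2 and at 0.81 without PMB replicate 1, and Sbsn at -0.97 without PMB replicate 2.

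Other genes of stratified epithelium were read from further lists. Over all genes with values on both collagen arrays, 2.68% were called higher and 3.28% lower. Of the genes named from these lists, Krt13, Col17a1, Sprr2d, Aqp3, St14 and Cldn23 had no row with values on all 4 arrays. They passed the filter through the collagen arrays alone, so the counts are descriptions. Of 20 other keratins 2 had values on both collagen arrays, Krt13, a keratin of oral and esophageal epithelium, at 3.34 and 2.43 (2.88 ± 0.64) and Krt20, a keratin of gut epithelium, at 1.43 and 1.34 (1.39 ± 0.064). Of 16 other desmosome and hemidesmosome genes 9 had values, and 3 were called higher and 0 lower. These were the hemidesmosome collagen Col17a1 at 4.18 ± 0.12, the laminin chain Lama3 at 2.21 and 2.18 (2.19 ± 0.022) and the integrin chain Itgb4 at 1.01 ± 0.18, whereas the partner chain Itga6 (-0.078 ± 0.19) and the linker proteins Dst (0.61 ± 0.11) and Plec (-0.16 ± 0.032) were not called. On PMB arrays Lama3 was at 0.60 ± 0.26 and Itgb4 at 0.72 ± 0.22, and Col17a1 was at -0.11 on replicate 1.

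Of 43 further envelope and barrier genes, 9 had values on both collagen arrays, 5 of them called higher and 1 lower. With values on all 4 arrays, 2 of 6 were called higher and 1 lower, against 2.21% and 3.38% of all genes. Sprr2d was at 3.37 ± 0.14, the water and glycerol channel Aqp3 at 3.10 ± 0.18 and the epidermal protease Asprv1 at 1.39 ± 0.49, and the connexin Gjb5 was the lower gene at -1.02 ± 0.11. Sprr2a1 was at 1.62 ± 0.099 over the rows valued on both collagen arrays and at 0.18 ± 0.085 on the row with 4 values. Of 17 epithelial transcription factors 5 had values. Grhl1 was at 1.38 ± 0.11, or 1.20 ± 0.46 on the row with 4 values, whereas Klf4, which promotes the epidermal barrier, was at -1.42 ± 0.019 and Barx2 at -1.94 ± 0.24. Of 28 other junction and surface genes 9 had values, with the membrane protease St14 called higher at 1.16 ± 0.32 and Cldn23 lower at -1.10 ± 0.13. None of the genes of these 5 lists with values on all 4 arrays (1, 8, 6, 5 and 5 genes) was called higher or lower with PMB. Over all genes the shares were 0.616% and 1.40%, so with this few genes the lists are not set apart from all genes.

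**Figure D4:**
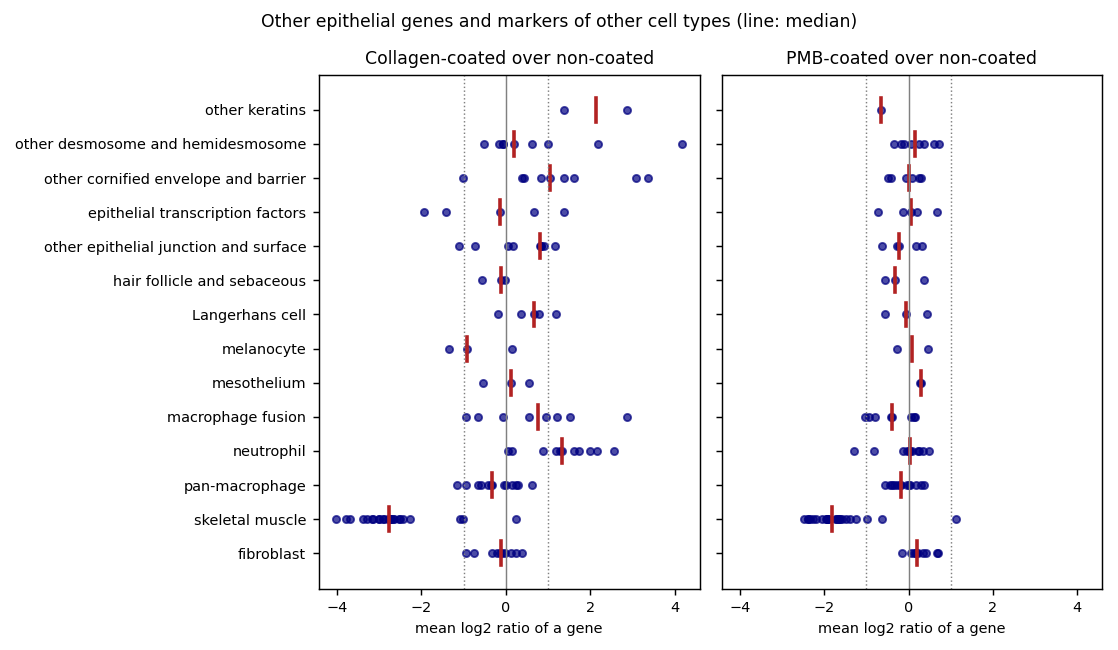
Each point is the mean log2 ratio of 1 gene, collagen-coated over non-coated on the left (values on both collagen arrays) and PMB-coated over non-coated on the right (values on all 4 arrays), for 5 lists of further epithelial genes and 9 lists of cell type markers, with a red line at the list median and dotted lines at 2-fold. The collagen medians run from -2.77 for skeletal muscle to 2.13 for the 2 other keratins with values.

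Markers of other structures in skin were read from the same extracts. Over all genes, 2.68% were called higher and 3.28% lower with collagen, and 0.616% and 1.40% with PMB. With this few genes valued, lists with few or no called genes are not set apart from all genes. Of 27 hair follicle and sebaceous genes 3 had values on both collagen arrays, Krt84, Tchh and Far2, with a range of -0.57 to -0.0080, and 0 were called with either coating. Of 7 melanocyte markers 3 had values, from -1.35 (Sox10, called lower) to 0.16 (Pmel). Of 6 mesothelial markers 3 had values, from -0.55 (Wt1) to 0.55 (Msln), and none was called. Of 6 Langerhans cell markers 5 had values, and Ccr6 was called higher at 1.20 ± 0.32, while the defining marker Cd207 had no value.

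Genes of some other cells moved at the same scaffold. The shares over all genes were 2.68% higher and 3.28% lower with collagen, and 0.616% and 1.40% with PMB. The general macrophage and fibroblast lists, with few or no called genes, are not set apart from these shares. Of 16 neutrophil markers 11 had values with collagen, 8 were called higher and 0 lower, with a median of 1.33, and with PMB 1 was lower and the median was 0.035. The 8 were Lcn2 at 2.56, Cxcr2 at 2.15, S100a8 at 1.99, S100a9 at 1.74, Stfa2l1 at 1.61, Csf3r at 1.33, Mpo at 1.29 and Mmp8 at 1.20. Of these, S100a8, S100a9 and Lcn2 are also made by keratinocytes at wounds. Of 9 markers of macrophage fusion, a process in which Cdh1 takes part, 3 of 8 with values were called higher with collagen and 0 lower. The 3 were Mmp9 at 2.87 ± 0.045, Oscar at 1.52 ± 0.040 and Acp5 at 1.22 ± 0.053. Ocstamp was at 0.96 ± 0.011, the fusion receptor Dcstamp at 0.56 ± 0.032, Chit1 at -0.66 and the proton pump subunit Atp6v0d2 at -0.94 with collagen. With PMB 0 of the 8 were called higher and Atp6v0d2 was called lower at -1.03. Of 25 skeletal muscle genes 24 had values, of which 23 were called lower with collagen (median -2.77) and 21 lower and 1 higher (Tnnc1, 1.12 ± 0.041) with PMB (median -1.82). Of 16 general macrophage markers 13 had values, with a median of -0.34 with collagen, where 1 was called lower, and of -0.19 with PMB. The 10 fibroblast genes with values had a median of -0.11 with collagen and 0.21 with PMB, and none was called with either coating. The part of any of these cells, or of skin held in the excised block, in the ratios of the epidermal genes was not tested.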

How the data were processed

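The authors hybridized both dye orientations of each coating to whole-genome mouse oligo arrays, quantified spots with GenePix Pro 4.1, normalized Cy3 and Cy5 by LOWESS and deposited log2 ratios. Across probes, the correlation of deposited values between swapped arrays was -0.79 (collagen) and -0.66 (PMB), and replicate 2, with the coated sample in Cy3, was reversed in sign. The deposited ratio was taken as Cy5 over Cy3, in the direction of the study's own tables. Of 43377 probes, 33651 had 1 gene symbol, 56 several and 9670 none. Rows of a gene were averaged where values stood on all 4 arrays (11842 genes), the filter first set for all comparisons, or otherwise on both collagen arrays (12356 genes). The second filter leads the text because the first leaves out 11 listed genes. The code of the calling rule was checked on simulated data with effects well away from the threshold, no empty spots and a single row per gene. That check does not cover calls near 2-fold or genes whose rows differ. The genes and lists were chosen with earlier results of these data known. Every listed gene is described, with up to 4 called genes of largest size from each further list. Others were named after their values were seen. Alternatives were scaling (limma 3.58.1, R 4.3.3), centring, row choice, thresholds and leaving out arrays. Python 3.11.15, pandas 2.3.3 and numpy 2.4.6 were used. The number of arrays limits the precision.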

Additional observations from a re-analysis of the deposited data

Results flagged for a closer look

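For 4 of the 11 listed genes with values on all 4 arrays, both arrays of one coating lay on one side of 0. Both arrays of the other coating lay on the opposite side. The share of all genes with this pattern is not given here. The difference of collagen minus PMB in log2 was 3.07 for Serpinb5, 1.40 for Sfn, -1.11 for Sbsn and -0.84 for Dmkn. Collagen gave the positive side for Serpinb5 and Sfn, and PMB gave it for Sbsn and Dmkn. For Sbsn and Sfn the pattern held for the mean of the rows but not for every row. On 1 row of Sbsn the PMB values were -0.12 and 0.069, and on 1 row of Sfn they were -0.22 and 0.26. The differences were not tested, since each scaffold gave 1 extract and both coatings share the non-coated extract.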

How the results depend on the processing

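The count of listed genes called higher with collagen was 6 with values required on all 4 arrays (2.21% of all genes). It was 16 with values required on both collagen arrays only (2.68% of all genes), a filter that adds 11 genes. With values on both collagen arrays it was 15 or 16 with arrays scaled or centred and with other row choices. The same held with each array at 2-fold or without the row annotated as Perp, and it was 16 without either collagen array. Under these settings 2.19% to 3.21% of all genes were called higher. With each array at 8-fold the count was 9, against 0.154% of all genes. Of these 9 genes, 8 had values on both collagen arrays but not both PMB arrays. These settings were chosen after seeing the data. With a threshold of 1.5-fold, 2 genes in place of 1 were lower with collagen (7.60% of all genes) and 3 in place of 0 were higher with PMB (4.32% of all genes). With 2-fold required on each PMB array 0 genes were lower with PMB in place of 1, and leaving out an array gave 0 to 1. Leaving out an array gave 1 to 3 genes lower with collagen than with PMB. The filter on 2 arrays gives no other value for collagen against PMB. With the row of smallest dye difference, the collagen-minus-PMB values of Krtdap (0.92), Sfn (0.93) and Sbsn (-0.64) fell short of 2-fold. With 2-fold required on each array, Pkp3 and Ppl lost that call, which left 5 genes higher and 2 lower (2.21% and 3.01% of all genes). No called gene reversed under these alternatives. No paired analysis was possible because the arrays of a coating are a dye swap of 1 pair of extracts and no test was made.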
